A study of Mus musculus with 64 samples.

Results

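The genes followed here were 9 neurogenic basic helix-loop-helix (bHLH) transcription factor genes, namely Olig1, Olig2, Olig3, Neurog1, Neurog2, Neurog3, Neurod1, Atoh1 and Atoh7. They were chosen by name, with earlier results of these data known, so their shares beside those of all genes are descriptions only. Their regions, each gene with 2 kb on either side, are 9 of 34328 protein-coding and lncRNA gene regions on the autosomes and X. In each library the measured value was the percent of a region covered by peaks called on the Cast allele (mm10). The cells were CD23+ B cells from the spleens of female F1 mus x cast mice, whose C57BL/6 mothers carried a heterozygous Xist deletion and whose fathers were M. m. castaneus. All groups share that cross, in which X inactivation is skewed; the 9 genes are autosomal. The groups are cells at 0 h, which were unstimulated, and cells given 1 µM CpG, a ligand of Toll-like receptor 9, for 12 h or 24 h. CUT&RUN, in which an antibody directs a nuclease to its target on chromatin, was done for 6 targets. At 0, 12 and 24 h there were 3, 3 and 4 libraries of H3K27me3, 4, 3 and 5 of H2AK119Ub, 4 each of H3K9me3, and 3 each of H3K27ac, Suz12 and Ring1B, making 61. Cells were measured in bulk, so fewer cells with a mark and less of the mark per cell cannot be told apart.

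Neurogenic bHLH proteins bind E-box sequences as dimers with E proteins and start neuronal, glial or sensory cell programmes. Outside those lineages their genes are textbook targets of the Polycomb complexes. PRC2, which contains Suz12, places H3K27me3, and PRC1, which contains Ring1B, places H2AK119Ub. H3K27ac marks active promoters and enhancers, and H3K9me3 marks constitutive heterochromatin.

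The promoters of 4 of the 9 genes are printed because their chromatin differed most: Neurog2 carried both Polycomb marks in all libraries, Neurog1 and Atoh7 carried H3K27me3 without H2AK119Ub at 0 h, and Neurod1 carried no peak of any kind. Each sequence runs 5′ to 3′ from 250 bases before to 50 bases after the start site (RefSeq, GRCm38.p6, the assembly of mm10), and capitals mark CpG dinucleotides. For Neurog2 the start site of the promoter table lies within the gene as the gene table has it. The positions are chr3:127632886-127633185 on the plus strand for Neurog2, chr13:56252131-56252430 on the minus strand for Neurog1, chr10:63099535-63099834 on the plus strand for Atoh7 and chr2:79456587-79456886 on the minus strand for Neurod1.
Neurog2: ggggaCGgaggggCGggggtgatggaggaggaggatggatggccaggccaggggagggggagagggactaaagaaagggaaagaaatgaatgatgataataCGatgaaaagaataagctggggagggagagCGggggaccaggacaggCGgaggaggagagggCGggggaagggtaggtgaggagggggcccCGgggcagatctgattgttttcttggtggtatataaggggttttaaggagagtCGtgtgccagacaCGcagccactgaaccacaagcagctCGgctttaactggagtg
Neurog1: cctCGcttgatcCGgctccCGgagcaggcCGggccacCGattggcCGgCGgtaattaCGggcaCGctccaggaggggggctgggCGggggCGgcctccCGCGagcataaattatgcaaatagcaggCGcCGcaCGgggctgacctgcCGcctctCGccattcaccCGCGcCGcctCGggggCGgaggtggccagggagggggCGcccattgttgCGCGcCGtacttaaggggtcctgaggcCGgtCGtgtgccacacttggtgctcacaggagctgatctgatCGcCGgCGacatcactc
Atoh7: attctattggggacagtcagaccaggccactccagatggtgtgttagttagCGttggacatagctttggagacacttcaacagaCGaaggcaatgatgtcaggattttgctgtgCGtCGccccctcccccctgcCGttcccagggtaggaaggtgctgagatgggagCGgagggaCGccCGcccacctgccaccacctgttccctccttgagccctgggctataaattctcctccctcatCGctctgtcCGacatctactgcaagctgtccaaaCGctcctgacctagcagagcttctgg
Neurod1: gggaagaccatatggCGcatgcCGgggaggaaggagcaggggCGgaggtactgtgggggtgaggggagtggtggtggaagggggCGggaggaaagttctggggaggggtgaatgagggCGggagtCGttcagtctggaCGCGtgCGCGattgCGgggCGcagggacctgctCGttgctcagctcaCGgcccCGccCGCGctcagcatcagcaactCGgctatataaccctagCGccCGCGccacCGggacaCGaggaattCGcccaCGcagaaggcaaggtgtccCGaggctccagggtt
These windows of 300 bases are from the reference assembly, while the peaks are of the Cast allele and mostly far longer. Whether CpG number goes with the marks was not tested. Neurod1, with no peak, had 26 CpGs in its window, and Neurog2, with a peak of both Polycomb marks in all libraries, had 10. Neurog1 had 32 and Atoh7 had 11, Olig2 had 25, Atoh1 had 20, Neurog3 had 19 and Olig3 had 4, against a median of 14 over 17274 promoters. Promoters matched for 8 of the 9 genes.

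The lists carried the acetylation of B cells. At each time all 10 B cell marker genes had an H3K27ac peak in at least 1 library, with library means of 22.0% to 89.8% of their regions covered, while T cell markers had a peak at 1 to 2 of 6, myeloid markers at 0 to 2 of 6 and erythroid markers at 0 to 1 of 4. The length of the lists moved with time for the histone marks. H3K27me3 peaks covered a mean of 52.0, 105 and 238 Mb of the autosomes at 0, 12 and 24 h, and H2AK119Ub peaks covered 39.1, 128 and 132 Mb. For Suz12 and Ring1B the caller kept a fixed top share, with 25173 to 29290 and 18147 to 28917 peaks per list. List length thus moved with the groups, and values from lists of equal length are given beside the calls.

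No peak of the active or the heterochromatic mark was called on the 9 regions, in 9 libraries of H3K27ac and 12 of H3K9me3. Over all genes, 15.2%, 33.3% and 33.8% had an H3K27ac peak in at least 1 library at 0, 12 and 24 h. For H3K9me3 the shares were 2.93%, 7.08% and 8.83%, so 0 of 9 genes is near the share of all genes. At a mean of at least 50% covered, 6, 7 and 8 of the 9 genes carried H3K27me3 at 0, 12 and 24 h, against 2.55%, 5.79% and 14.4% of all genes. For H2AK119Ub the counts were 2, 6 and 6 of 9 at 0, 12 and 24 h, against 2.02%, 7.42% and 9.18% of all genes.

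**Figure D1:**
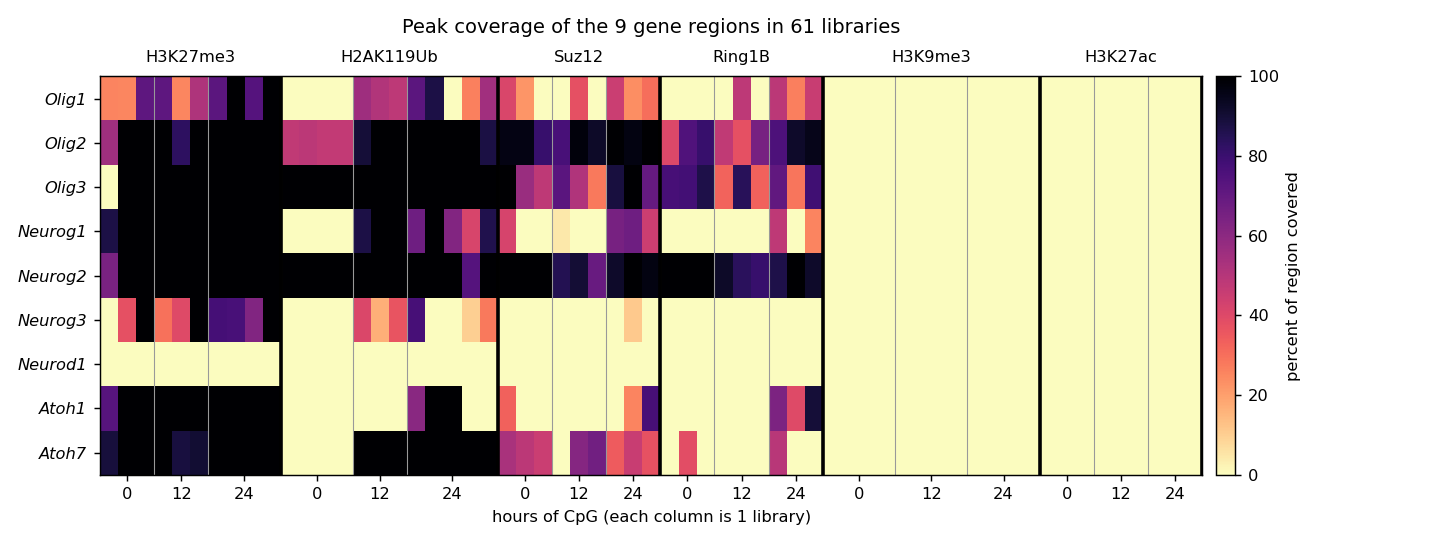
Percent of each of the 9 gene regions covered by peaks, in every library. Rows are genes and columns are the 61 libraries, grouped by antibody and then by hours of CpG; the colour runs from pale at 0% to black at 100%. H3K27me3 marks 8 rows at 24 h, H2AK119Ub marks few rows at 0 h and more later, the Neurod1 row is empty, and the H3K9me3 and H3K27ac columns are empty.

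H3K27me3 was already broad at these genes before stimulation. Atoh7 (chr10:63099785-63101280), which starts retinal ganglion cells, had 88.8%, 100% and 100% of its region covered at 0 h, and its mean of 96.3% was reached by 0.134% of all genes. Neurog1 (chr13:56250478-56252180), a determination gene of cranial sensory neurons, had 87.3%, 100% and 100%. Atoh1 (chr6:64729125-64731245), needed for cerebellar granule neurons and inner ear hair cells, had 73.4%, 100% and 100%. In each of these 3 genes the lowest value was that of replicate 1, and the other replicates were full.

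Neurog2 (chr3:127632733-127635636), a determination gene of cortical neurons, had 64.8%, 100% and 100% covered by H3K27me3 at 0 h. Olig2 (chr16:91225550-91228677), which specifies motor neurons and oligodendrocyte precursors, had 55.3%, 100% and 100%. Olig3 (chr10:19356539-19358604), active in dorsal spinal cord and hindbrain progenitors, had 0%, 100% and 100%. Replicate 1 again stood lowest, and at Olig3 it had no peak at all.

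At 24 h the 6 genes Atoh7, Neurog1, Atoh1, Neurog2, Olig2 and Olig3 were at 100% in all 4 H3K27me3 libraries, so their regions had no room for a higher value. Only Olig1 and Neurog3 had partial coverage at that time. Olig1 (chr16:91269769-91271939), which acts in oligodendrocyte maturation, had 72.1%, 100%, 73.8% and 100% at 24 h, against 25.7%, 25.1% and 71.1% at 0 h. The lowest 24 h library was just above the highest at 0 h, and the 12 h values of 71.4%, 25.1% and 51.7% lay across the 0 h range.

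Neurog3 (chr10:62133090-62134763), which starts the endocrine cells of the pancreas, had 77.5%, 76.6%, 62.8% and 100% covered by H3K27me3 at 24 h, against 0%, 37.9% and 100% at 0 h. The groups overlapped, with 1 unstimulated library as high as any. No member passed the test for H3K27me3 over the 3 times (limma moderated F-test, Benjamini-Hochberg over 11914 genes, adjusted p under 0.05), and 1 of the 8 tested had an unadjusted p under 0.05. Among all genes tested 56.8% passed and 56.5% were higher at 24 h than at 0 h. Olig1 came nearest, at 86.5% ± 15.6 at 24 h (SD, n = 4) against 40.6% ± 26.4 at 0 h (SD, n = 3), a difference of 45.8 points with a standard error of 15.7 and adjusted p = 0.0551. It passed with 5 kb on each side (adjusted p = 0.00857) and when either replicate 3 of 0 h (0.0146) or replicate 1 of 12 h (0.0454) was left out.

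Cutting each H3K27me3 list to its 2771 strongest peaks left the means of 7 genes with peaks as they were, so Olig1 again had 86.5% at 24 h, against 40.6% at 0 h (limma adjusted p = 0.151). Neurog3 then had 29.8% at 24 h, against 46.0% at 0 h (adjusted p = 0.726), the opposite order.

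H2AK119Ub divided the genes into groups. Neurog2 and Olig3 carried it in full in all libraries but 1, Olig2 carried it in part at 0 h and nearly in full after CpG, and 4 genes, Atoh7, Neurog1, Olig1 and Neurog3, had no peak at 0 h and a peak in every library of 12 h. Atoh1 had it only in libraries of 24 h. Of the 8 genes tested, 4 passed (Atoh7, Neurog1, Olig2 and Olig1), all higher at 12 h and at 24 h than at 0 h, where 33.2% of the 13845 genes tested passed, 31.0% were higher at 24 h and 22.0% were higher at 12 h.

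Atoh7 had 0% covered by H2AK119Ub in all 4 libraries of 0 h, 100% in all 3 of 12 h and 100% in all 5 of 24 h. The groups did not overlap, and the difference between 24 h and 0 h was 100 points with a standard error of 5.48 (limma adjusted p = 2.28e-06). The libraries within each group had the same value, so this standard error and p rest on the spread that limma borrows from other genes. Neurog1 had 0% in all 4 libraries of 0 h, then 87.3%, 100% and 100% at 12 h and 67.2%, 100%, 62.5%, 41.8% and 86.3% at 24 h. Every stimulated library was above every unstimulated one, and the difference between 24 h and 0 h was 71.6 points (standard error 10.7, limma adjusted p = 0.000465).

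Olig2 had 47.4%, 48.7%, 47.0% and 47.1% covered by H2AK119Ub at 0 h, 89.5%, 100% and 100% at 12 h, and 100% in 4 libraries and 87.7% in the other at 24 h. The 4 unstimulated libraries agreed closely and lay below all the stimulated ones, and the difference between 24 h and 0 h was 50.0 points (standard error 5.63, limma adjusted p = 0.000185). Olig1 had 0% in all 4 libraries of 0 h, 55.6%, 51.1% and 48.1% at 12 h, and 72.2%, 87.3%, 0%, 26.4% and 54.9% at 24 h. In replicate 3 of 24 h it had no peak, so the groups met at zero. The difference was 48.2 points (standard error 14.9, limma adjusted p = 0.0405). That call was lost without any 1 library of 0 h or 12 h or without replicate 5 of 24 h, where adjusted p lay between 0.0538 and 0.0994, and its highest adjusted p over all settings was 0.116.

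Neurog2 had 100% covered by H2AK119Ub in the libraries of 0 h and 12 h and 100%, 100%, 100%, 73.5% and 100% at 24 h. Olig3 was at 100% in all 12 libraries. Atoh1 had 60.8%, 100%, 100%, 0% and 0% at 24 h, against 0% in all libraries of 0 h and of 12 h (limma adjusted p = 0.0881). Those 24 h libraries split into 3 with a peak and 2 without, and leaving out either of the 2, replicates 4 and 5, gave adjusted p = 0.0242 and 0.0330.

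Neurog3 had 77.3%, 0%, 0%, 9.96% and 28.1% covered by H2AK119Ub at 24 h, against 0% at 0 h, with 40.8%, 16.8% and 36.4% at 12 h (limma adjusted p = 0.214, or 0.0262 without replicate 1 of 24 h). All 3 libraries of 12 h had a peak and 2 of the 5 of 24 h had none.

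**Figure D2:**
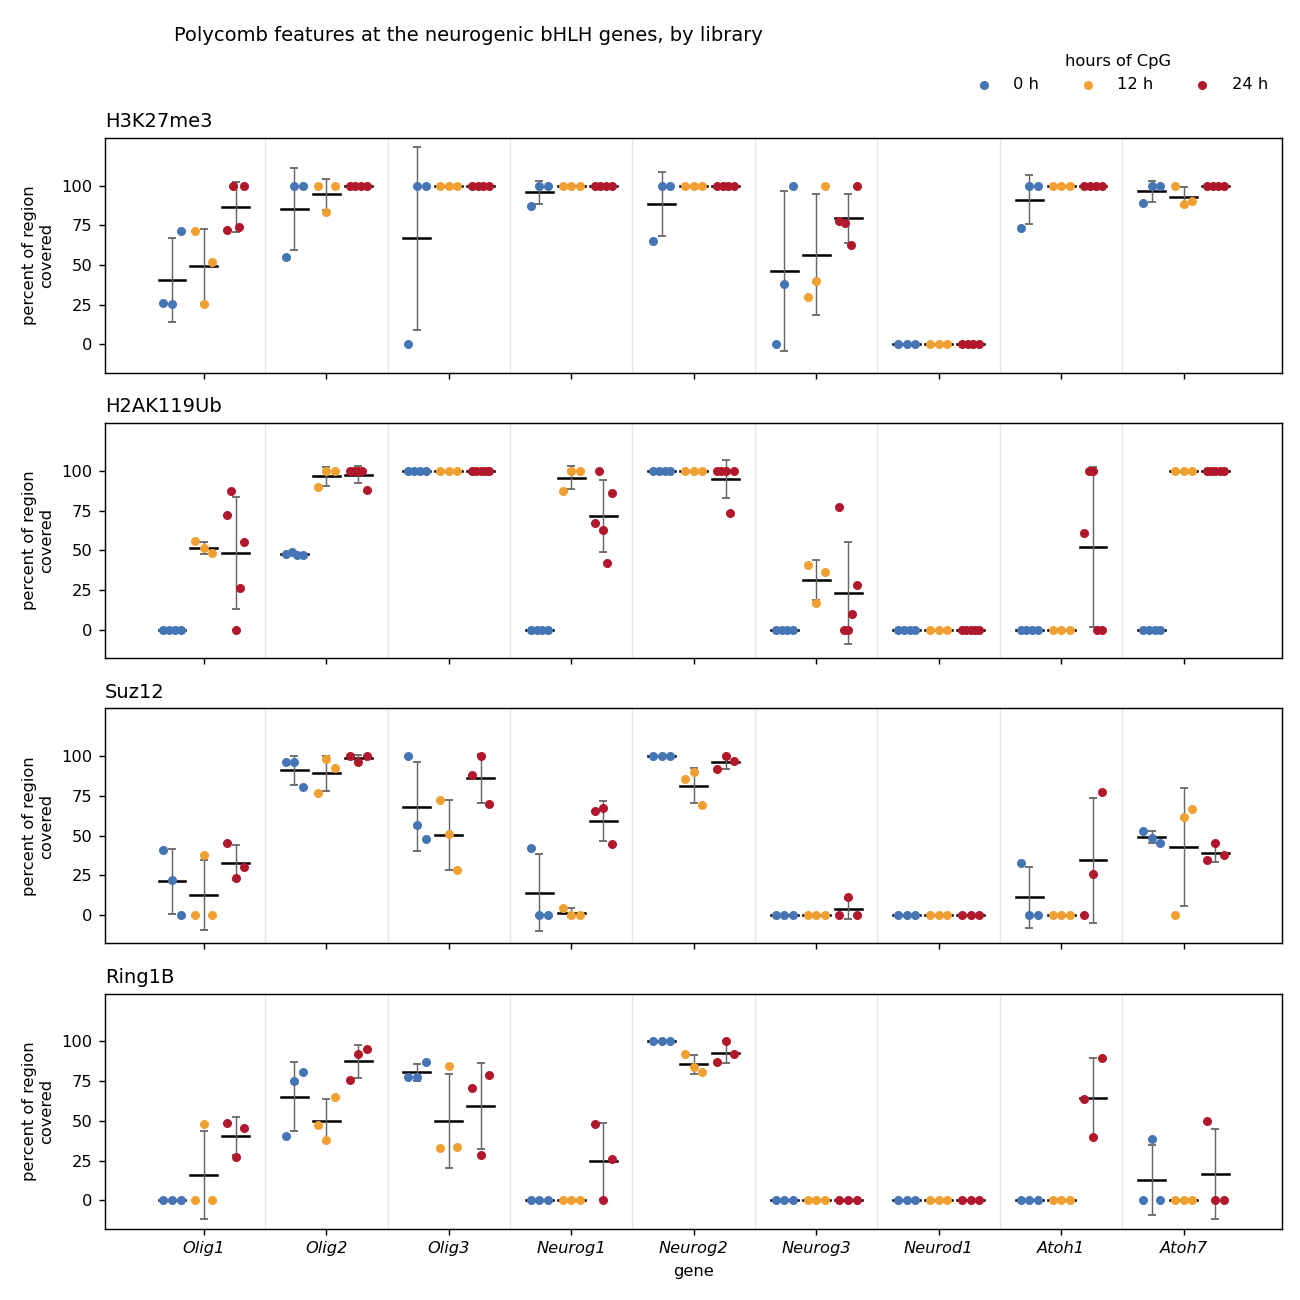
Percent of each region covered in every library (points), with the mean (black bar) and SD (grey bar, which can run past 0 or 100), for the 4 Polycomb features; colours give 0, 12 and 24 h of CpG. H3K27me3 points crowd at 100% from the start, H2AK119Ub points of Atoh7 and Neurog1 lie at 41.8% or above after CpG and at 0% before it, and Neurod1 is at 0% throughout.

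The lists of H2AK119Ub were longer after CpG, with 10964 to 24635 peaks at 24 h against 2100 to 4346 at 0 h, and the lowest value of a peak's highest signal that a list kept was 4 to 6 at 24 h and 9 or 10 at 0 h. With each list cut to its 2100 strongest peaks, Olig2 still differed, at 97.5% at 24 h, against 47.6% at 0 h (limma adjusted p = 7.38e-05), and Atoh7 had 80.0% ± 44.7 at 24 h (SD, n = 5), against 0% at 0 h (n = 4; limma adjusted p = 0.0157). Neurog1 and Olig1 had no peak in any of these equal lists, at any time, so their calls rest on weaker peaks that the longer lists of 12 h and 24 h hold. With only peaks whose highest signal was at least 10 in each list, all 4 genes passed, with limma adjusted p = 3.17e-06 for Atoh7, 0.000252 for Olig2, 0.00909 for Neurog1 and 0.0473 for Olig1; the depth of the libraries, which moves such a floor, is unknown.

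The highest signal of the H2AK119Ub peaks was also set against that of the Neurog2 peak in the same list. At 0 h Atoh7 had no peak. The lowest such value among the peaks that each 0 h list kept was 10.7%, 8.77%, 21.4% and 19.6% of Neurog2. Atoh7 stood at 64.5%, 63.2% and 75.0% of Neurog2 at 12 h and at 53.0%, 38.2%, 62.2%, 87.5% and 57.5% at 24 h. In all 8 stimulated libraries it was above those 0 h values. Neurog1, also without a peak at 0 h, stood at 35.5%, 36.8% and 35.7% at 12 h and at 33.3%, 34.5%, 37.8%, 50.0% and 30.0% at 24 h. Olig1, likewise without one, stood at 38.7%, 34.2% and 39.3% at 12 h. At 24 h it stood at 33.3%, 32.7%, 68.8% and 45.0%, with no peak in replicate 3. Where Neurog1 and Olig1 had a peak, they too were above those 0 h values. Olig2 stood at 47.6%, 49.1%, 57.1% and 47.8% of Neurog2 at 0 h, at 71.0%, 71.1% and 71.4% at 12 h and at 75.8%, 63.6%, 122%, 138% and 80.0% at 24 h. These are the authors' signal values and describe positions within a list. The lowest highest signal in a list need not be the cut that its caller used. The comparison therefore cannot tell what signal a region without a peak had at 0 h. In replicate 4 of 24 h the Neurog2 peak itself had a highest signal of 16, against 40 to 66 in the other libraries of 24 h.

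**Figure D3:**
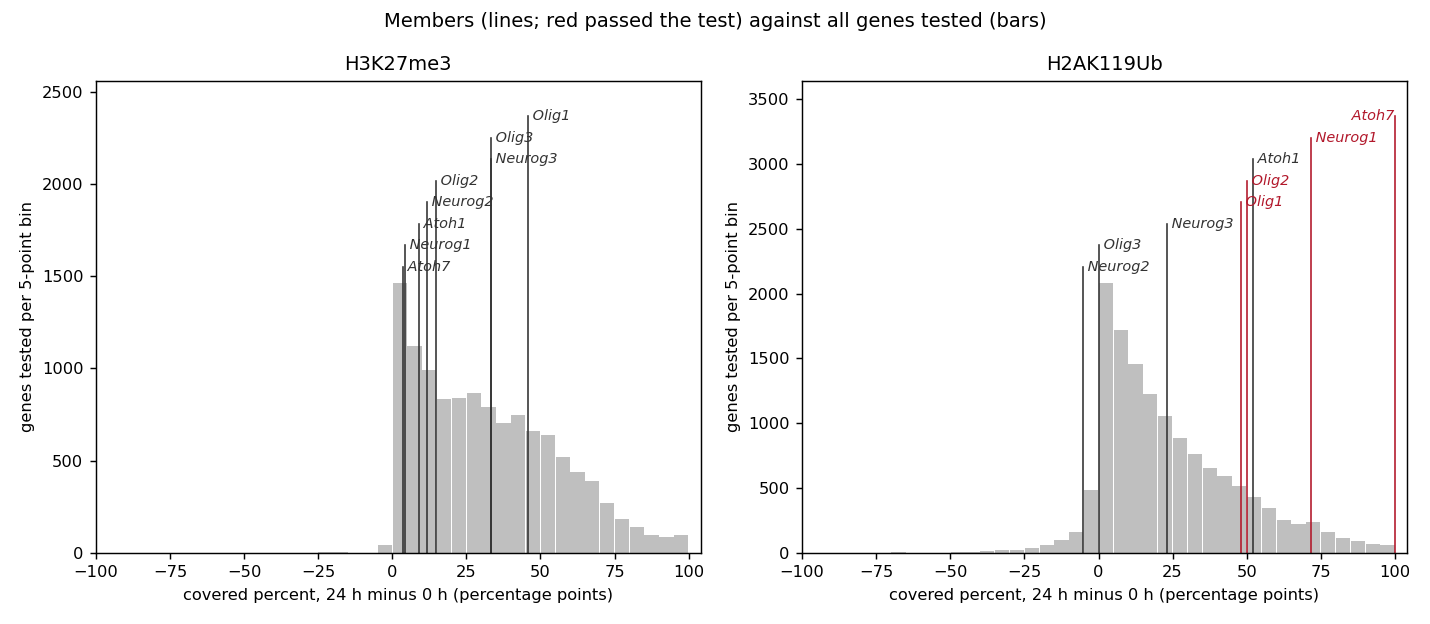
Difference in covered percent, 24 h minus 0 h, for every gene tested (grey bars, genes per bin of 5 percentage points) and for the 8 members tested (vertical lines, red where the gene passed the test), for H3K27me3 on the left and H2AK119Ub on the right. The H3K27me3 lines run between 3.72 and 45.8 points, and the H2AK119Ub lines between -5.31 and 100 points, with Atoh7 at the far right.

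Over the 8 members tested, the median difference between 24 h and 0 h was 13.3 points for H3K27me3, against 28.9 points over all genes tested, and 49.1 points for H2AK119Ub, against 18.0 points. When values were scaled by the autosomal covered length of each library, the median over all genes tested was 5.36 points for H3K27me3 and 9.16 points for H2AK119Ub. The split of calls between higher and lower at 24 h was then 1903 to 447 for H3K27me3, against 6730 to 1 unscaled, and 3983 to 1045 for H2AK119Ub, against 4297 to 41 unscaled. That scaling puts fully covered regions of the shorter lists above 100%, and under it all 8 members tested had a lower H3K27me3 value at 24 h than at 0 h. For H2AK119Ub it left Atoh7, Neurog1 and Olig1 higher at 24 h, while Olig2 turned lower, by -41.0 points (limma adjusted p = 0.284).

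The state with H3K27me3 but not H2AK119Ub in unstimulated cells was common at these genes and elsewhere. Of the 6 members with an H3K27me3 peak in all 3 libraries of 0 h, 4 (Olig1, Neurog1, Atoh1 and Atoh7) had no H2AK119Ub peak in any library of 0 h, and 3 of those 4 (Olig1, Neurog1 and Atoh7) had one in every library of 12 h. Among all genes the same steps gave 2034 genes, then 711 of them (35.0%), then 430 of those 711 (60.5%). The remaining 2 of the 6, Olig2 and Neurog2, had H2AK119Ub in all 4 libraries of 0 h, as did 38.8% of the 2034. The antibodies were called with thresholds of their own, so the order of the marks in time was not tested.

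Suz12, the PRC2 subunit, covered most of the 3 genes with H2AK119Ub at 0 h. Neurog2 was at 100% in all 3 libraries of 0 h, a level reached by 0.0553% of all genes, and its peak lay within the top 0.112% of each list by total signal. Olig2 had 96.3%, 96.1% and 80.6% covered at 0 h, and Olig3 had 100%, 56.8% and 47.7%. Atoh7 had 52.9%, 48.6% and 45.2%, a narrower band, and Neurog3 had none.

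No gene of the 18049 tested passed for Suz12 (limma, 0% called, 1582 at an unadjusted p under 0.05), and so none of the 7 members tested did, with 1 under the unadjusted limit. That gene was Neurog1, with 65.2%, 67.6% and 44.9% covered at 24 h, against 41.9%, 0% and 0% at 0 h, and 4.44%, 0% and 0% at 12 h. Every 24 h library was above the others, and the limma F-test gave an unadjusted p of 0.00222 and an adjusted p = 0.173. Atoh1 had 0%, 25.7% and 77.2% at 24 h, against 33.0%, 0% and 0% at 0 h, and the groups overlapped.

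Ring1B, the PRC1 subunit, was also highest at those 3 genes at 0 h. Neurog2 was at 100% in all 3 libraries, a level reached by 0.0291% of all genes. Olig3 had 77.3%, 77.9% and 86.8%, and Olig2 had 40.4%, 74.8% and 80.6%. Olig1, Neurog1, Neurog3 and Atoh1 had no Ring1B peak at 0 h, and Atoh7 had one in 1 of 3 libraries.

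Ring1B passed at 15 of 17641 genes (0.0850%) and at none of the 5 members tested, although 3 of the 5 had an unadjusted limma p under 0.05. Atoh1 had 63.8%, 39.5% and 89.5% covered at 24 h, against 0% in all libraries of 0 h and of 12 h. The groups did not overlap, and the difference of 64.3 points (standard error 11.2) had a limma adjusted p = 0.0605. It passed in lists of equal length (adjusted p = 0.0404), in the upper 50% of each list (0.0316), over the gene body alone (0.0459) and on the arcsine scale (0.0204). It did not pass in the other 11 of 15 settings, where adjusted p reached 0.190. Olig1 had 48.8%, 26.9% and 45.4% at 24 h, against 0% in all libraries of 0 h, and 0%, 48.0% and 0% at 12 h (limma adjusted p = 0.468). In lists of equal length its adjusted p was 0.0342, and it passed in that 1 of 18 other settings.

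The length of the H2AK119Ub peaks on the start sites set the genes apart as well. At 0 h the median peak over the start was 27.2 kb at Neurog2, 25.1 kb at Olig3 and 6.27 kb at Olig2. At Olig2 the median was 27.3 kb at 12 h and 26.2 kb at 24 h, with 1.37 kb downstream of the start at 0 h and 15.3 kb at both later times. Its peaks ran from 6.22 to 13.2 kb at 0 h, 8.90 to 32.6 kb at 12 h and 14.3 to 36.2 kb at 24 h. The lengths of 0 h and 12 h thus overlapped, and those of 0 h and 24 h did not. At Atoh7 the peak was 7.65 kb at 12 h and 7.07 kb at 24 h, and the H3K27me3 peak of 7.04 kb at 0 h was as short.

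Within 20 kb on either side of the genes, bases covered in at least 50% of the libraries of a group were compared between the marks. At Olig2 the H2AK119Ub stretch lay wholly within that of H3K27me3 and made up 18.9%, 74.6% and 80.9% of it at 0, 12 and 24 h. At Neurog1 it made up 0%, 24.8% and 17.0%. At Neurog2 all of the H3K27me3 stretch at 0 h was shared, and 89.1% of the H2AK119Ub stretch was. The left edge of the peak on Atoh7, at position 63096295 on chromosome 10, was the same base in 12 of the 18 H3K27me3 and H2AK119Ub libraries with a peak there, and its right edge was shared by 5. No edge at the other genes was shared by more than 3 libraries.

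**Figure D4:**
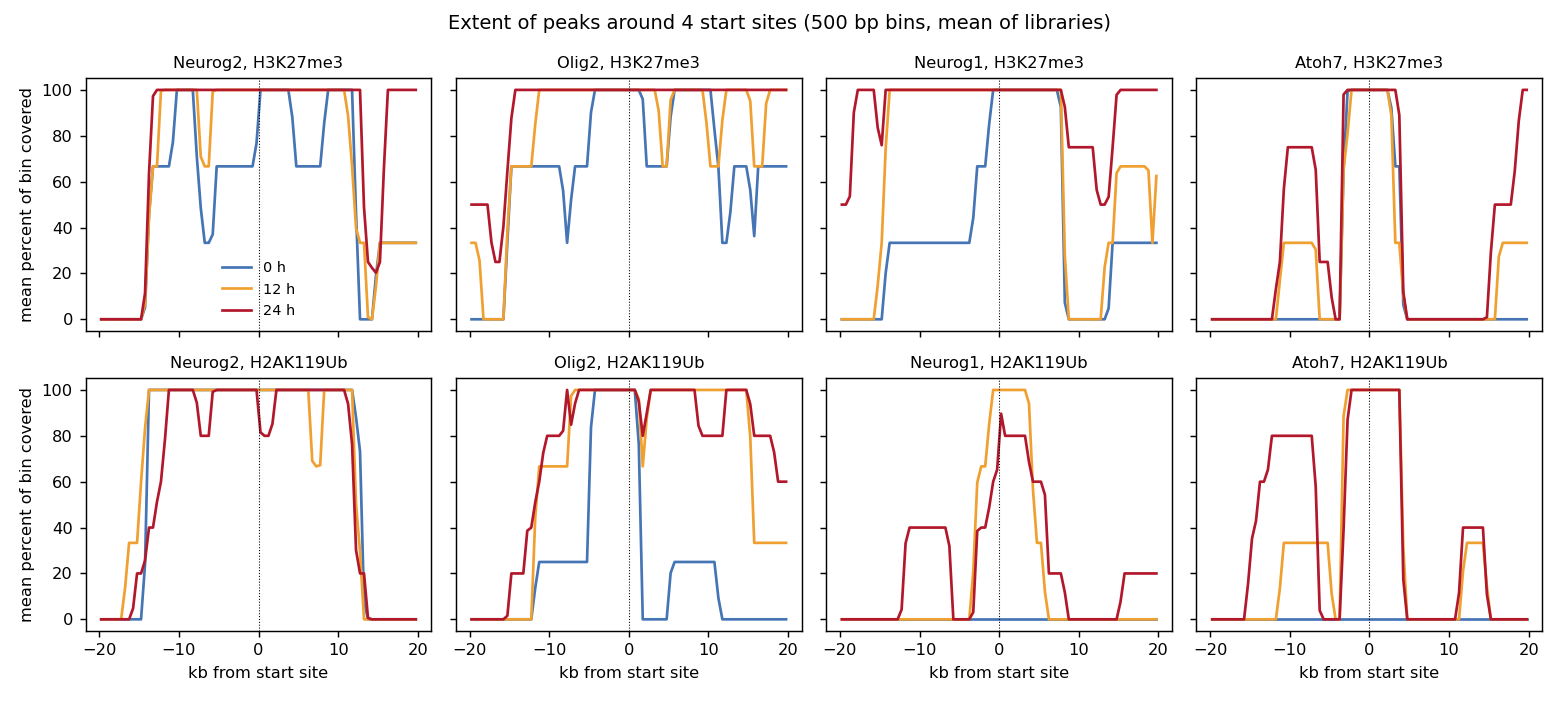
Mean percent of 500 bp bins covered by peaks, within 20 kb of the start sites of Neurog2, Olig2, Neurog1 and Atoh7, with the direction of transcription to the right; the upper row is H3K27me3 and the lower row H2AK119Ub, and colours give 0, 12 and 24 h. H2AK119Ub at 0 h spans Neurog2, stops close after the start of Olig2 and is absent from Neurog1 and Atoh7.

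Olig2 and Olig1 are neighbours on chromosome 16, and the 41.1 kb between them was filled in part. H3K27me3 covered 53.4% ± 3.12 of it at 24 h (SD, n = 4), against 32.9% ± 13.0 at 0 h (n = 3). H2AK119Ub covered 38.6% ± 8.66 at 24 h (n = 5), against 3.70% ± 7.41 at 0 h (n = 4), with a lowest value of 28.7% at 24 h and a highest of 14.8% at 0 h. No single peak joined the 2 genes in any library of any antibody.

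Neurod1 (chr2:79452637-79456636), which drives the differentiation of neurons and pancreatic islet cells, was the exception among the 9. It had no peak in any of the 61 lists, and it lay in a stretch without peaks from chr2:79429537-79489738, 60.2 kb long. How well the Cast allele could be read in that stretch is unknown, so the marks are not shown to be lacking there. The nearest H3K27me3 peak was 34.0 to 41.2 kb from the gene across 10 libraries. A region without peaks in all lists was found for 2706 of 21631 protein-coding genes (12.5%). Its relatives differed from it: Neurod2, a later neuronal factor, had 84.3% covered by H3K27me3 at 24 h against 30.4% at 0 h (limma adjusted p = 0.0312), and Neurod4 had 64.6% against 10.6% (adjusted p = 0.0106).

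The other neural bHLH genes had a lower median H3K27me3 level at 0 h than the 9, whose median level was 85.1%. Their single levels overlapped those of the 9, with Bhlhe23 at a mean of 88.8% and the member Olig1 at 40.6%. Of 10 tested, 6 passed, close to the 56.8% of all genes tested that did, and all 6 were higher at 24 h than at 0 h, with a median difference of 53.9 points over those tested, against 28.9 points over all genes, and a median level of 30.4% at 0 h over the 11 genes listed. Ptf1a, needed for pancreas and cerebellar inhibitory neurons, had 87.7% at 24 h against 15.0% at 0 h (limma adjusted p = 0.00529). Bhlhe22, a factor of cortical and dorsal horn neurons, had 97.0% against 37.7% (adjusted p = 0.0486). For H2AK119Ub 3 of 5 passed, where 33.2% of all genes did, all higher: Bhlhe23 had 95.4% against 0% (adjusted p = 3.50e-05), Nhlh1 82.3% against 0% and Bhlhe22 43.6% against 0%. Among bHLH genes of other lineages 5 of 11 passed for H3K27me3, a smaller share than the 56.8% of all genes tested, and 5 of 12 for H2AK119Ub, against 33.2% of all genes tested. All were higher at 24 h. Ascl2, a trophoblast and stem cell factor, had 100% covered by H3K27me3 at 24 h against 17.5% at 0 h (adjusted p = 0.00475), and Myod1, the muscle determination gene, had 90.9% covered by H2AK119Ub against 25.0% (adjusted p = 0.0362).

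The dimer partners of these factors had peaks of the active mark over part of their regions. The 3 E protein genes Tcf3, Tcf4 and Tcf12, which are used in B cells, had H3K27ac at each time. It covered 14.3% ± 12.6, 8.23% ± 7.24 and 4.48% ± 5.05 of them at 0 h (SD, n = 3), and 26.1%, 18.0% and 32.7% at 24 h. No change passed (1.46% of 9342 genes did), and H3K27me3 peaks were too few to be tested. All 3 genes also had peaks of H2AK119Ub, Suz12 and Ring1B in at least 1 library of 24 h. Of the Id genes, whose products block E protein dimers, 2 of 3 passed for H3K27me3 and 1 of 3 for H2AK119Ub, near the 56.8% and 33.2% of all genes tested, and all were higher at 24 h. Id2 had 92.3% covered by H3K27me3 against 21.6% at 0 h (limma adjusted p = 0.0224), and Id3 had 92.1% covered by H2AK119Ub against 23.2% (adjusted p = 0.0241). Both also had H3K27ac, at 30.5% of Id2 at 24 h against 0% at 0 h and at 95.2% of Id3 against 58.1%, and neither difference passed (adjusted p = 0.386 and 0.464).

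The Notch pathway holds proneural genes in check. Of 7 Hes and Hey family genes tested, 6 passed for H2AK119Ub, against 33.2% of all genes tested. The later level was higher at 5 of them and lower at 1, while 0.296% of all genes tested were lower at 24 h. Hes6 had 99.8% at 24 h against 0% at 0 h (limma adjusted p = 2.28e-06), and Hey2 fell to 64.9% at 24 h, against 93.0% at 0 h (adjusted p = 0.0207). For H3K27ac 3 of these genes were tested and 0 passed, against 1.46% of all genes tested. Hes6 had 61.3% covered by H3K27ac at 24 h against 0% at 0 h (limma adjusted p = 0.134), and Hes7 had 79.5% against 27.7% (adjusted p = 0.310). For H3K27me3 2 of 4 passed, against 56.8% of all genes tested, Hey1 and Heyl, both higher, with Hey1 at 47.3% at 24 h against 0% at 0 h (adjusted p = 0.00034). Of the Notch ligands and receptors 5 of 8 passed for H2AK119Ub and 5 of 7 for H3K27me3, against 33.2% and 56.8% of all genes tested. All were higher at 24 h, with the ligand gene Dll3 at 94.3% of H2AK119Ub at 24 h against 0% at 0 h (adjusted p = 5.55e-05) and Dll1 at 59.1% of H3K27me3 against 4.23% (adjusted p = 0.00415).

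Among 14 genes known downstream of the 9 factors, 7 of 11 passed for H2AK119Ub, against 33.2% of all genes tested, and 6 of 14 for H3K27me3, a smaller share than the 56.8% of all genes tested. All were higher at 24 h than at 0 h. Mnx1, a motor neuron factor, had 98.4% covered by H2AK119Ub at 24 h against 0% at 0 h (limma adjusted p = 2.63e-06), and Eomes, a factor of cortical intermediate progenitors, had 91.2% against 10.8% (adjusted p = 0.000165). Isl1, found in motor and retinal ganglion neurons, had 92.5% covered by H3K27me3 against 33.3% (adjusted p = 0.0291), and Sox10, a factor of glia and neural crest, had 72.0% against 18.6% (adjusted p = 0.0425). Insm1, a neuroendocrine factor, was 1 of the 15 genes that passed for Ring1B, at 77.9% at 24 h against 0% at 0 h (adjusted p = 0.0485), where 0.0794% of genes were higher at 24 h. Over all genes the Ring1B calls numbered 0 to 2 when any 1 library was left out.

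Across all 61 libraries the mean coverage of the 9 genes was followed most closely, among 18902 protein-coding genes over 100 kb away, by Gata4 (Pearson r = 0.973), Hoxd3 (0.960), Lhx6 (0.951), Eomes (0.951) and Lhx4 (0.947). Among the 9, Olig2 and Neurog2 were most alike (r = 0.922), followed by Olig3 and Neurog2 (0.914) and by Neurog1 and Atoh7 (0.905), and Neurog2 and Neurog3 were least alike (0.401). These values describe 61 libraries that share antibodies and list lengths.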

How the data were processed

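CUT&RUN peak lists of 61 libraries were used, 1 per sample, and 3 samples labelled IgG were not analysed here. Per the submitters' processing notes, reads were handled with Trimmomatic 0.32, Bowtie2 2.3.4.1, Picard and deepTools 3.5.1 on mm10. The deposited lists have 6 columns and no header, and their names give the caller SEACR, the Cast allele and the settings: "norm relaxed" in lists of histone marks, and "non" and "stringent" at a top share of 0.01 in those of Suz12 or Ring1B. The start and end positions, of another kind of value, were deposited by the authors and gave the covered stretches; the deposited signal columns (total and highest coverage of a peak) only ranked or filtered peaks within a list. The sources used here do not give the SEACR version, the allele rule or how deeply libraries were sequenced, so depth is unknown and precision rests on the number of libraries. Titles of the H3K9me3 libraries spell the mark differently from the antibody label, which was followed. Per the labels replicates are biological, but their numbers are not tied to animals.

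Overlapping peaks were merged and the covered percent of each region computed over 34328 genes of a RefSeq table (GRCm38.p6). For each antibody, limma 3.58.1 in R 4.3.3 (moderated F-test over 0, 12 and 24 h, trend and robust options) was run on genes with a peak in at least 3 libraries, with Benjamini-Hochberg adjustment over those genes and a threshold of 0.05; a contrast was called where its own p was also under 0.05. The method was also run on simulated data, but no outcome of that run is given here. That run is therefore no evidence for the calls, least of all where all libraries of a group had the same value. Members and lists were chosen with earlier results of these data known. All 9 members were named; of each list, at most 3 genes per mark that passed, by largest difference between 24 h and 0 h; and the 5 genes with the highest r. Neurod2, Neurod4 and Hey2 were named after their values were seen. The alternatives were other flanks, scaling, equal or stricter lists, another filter, the arcsine scale, other limma options, a replicate block, each library left out and, added after seeing the data, a common lowest H2AK119Ub signal.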

Additional observations from a re-analysis of the deposited data

Results flagged for a closer look

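Groups of 4 and 5 libraries were searched for a library far from the others, and 9 groups with any spread were tested. Chance would flag about 1 in 20 groups of normally spread values, and 2 were flagged, both for H2AK119Ub at 24 h. In both, all other libraries were at 100%, where any single departure is flagged whatever its size, so that rate does not apply. Olig2 had 87.7% of its region covered in replicate 5, while the other 4 libraries were at 100%. Neurog2 had 73.5% covered in replicate 4, while the other 4 were at 100%; that library had the shortest list of its group, with 10964 peaks, and the part of this in the value was not tested.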

How the results depend on the processing

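Of 529 values of the 28 member and antibody pairs under other settings, 488 kept their direction and their side of the threshold, 13 lost it, 16 gained it and 12 changed sign. The 4 members passing for H2AK119Ub were 2 in lists of equal length, where only 4 could be tested, 2 in the upper 50% of each list (where Neurog1 had an adjusted p of 0.162 by limma) and 3 to 5 with 1 library left out; Atoh7 passed in all 22 other settings, and Olig2 in 21, missing under scaling. The 0 passing for H3K27me3 were 1 with 5 kb on each side, 1 in the upper 50%, 3 under scaling and 0 to 1 with 1 library left out. The 3 under scaling were Neurog1, Atoh1 and Atoh7, all lower at 24 h than at 0 h. The 0 passing for Ring1B were 1 over the gene body, 1 in the upper 50%, 1 on the arcsine scale and 2 in lists of equal length. No member passed for Suz12 in any setting, and H3K9me3 and H3K27ac had no member to test.

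Scaling by autosomal covered length gave H3K27me3 differences between 24 h and 0 h of -61.5 points for Olig1, -226 for Olig2, -138 for Olig3, -277 for Neurog1, -241 for Neurog2, -59.1 for Neurog3, -255 for Atoh1 and -280 for Atoh7, and H2AK119Ub differences of -41.0 for Olig2, -184 for Olig3 and -193 for Neurog2, the last 2 past the threshold and lower at 24 h. By construction this multiplies full regions of short lists beyond 100%, which no region can reach. It also gave 16.9 for Suz12 at Neurog2. Lists of equal length gave -16.1 for H3K27me3 at Neurog3, and the gene body alone gave 0.713 for Suz12 at Atoh7; the cause was not tested.

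Counts over all genes ran from 288 to 8531 for H3K27me3, 689 to 6682 for H2AK119Ub, 0 to 244 for Suz12 and 0 to 190 for Ring1B. Same-numbered libraries did not deviate together (highest correlation 0.0819 for H3K27me3), so the numbers were not taken to pair samples; with the replicate block, 4 members passed for H2AK119Ub (Atoh1 in place of Olig1) and 0 for any other antibody. Over all genes the block left 4156 passing for H3K27me3, 2193 in the H2AK119Ub fit, 1148 in the H3K9me3 fit and 0 in those of H3K27ac, Suz12 and Ring1B. Depth is unknown, so a region without a peak is one where none was called, not one shown to lack the mark.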
